A study of Homo sapiens with 4 samples.

Results

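The genes described here encode the initiation and elongation factors of translation. They were taken by symbol, as every splicing event of a gene whose symbol begins with EIF or EEF and a number, and this gave 773 of the 121269 deposited events, in 56 genes. Of these events 528 were skipped exons and 193 were pairs of mutually exclusive exons. The other types were fewer, with 33 for 3′ splice sites, 12 for 5′ splice sites and 7 for retained introns. The symbols also take in genes with other functions, namely the antisense transcript EIF3J-AS1, the pseudogene EEF1DP3, the exon junction complex helicase EIF4A3 and EEF1E1, which belongs to the aminoacyl-tRNA synthetase complex. The Y-linked EIF1AY is counted but its values are not shown.

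The RNA-seq came from U87MG cells, a human glioblastoma line grown without further genetic change, transfected with Lipofectamine and 2.5 µM of an oligonucleotide. The 2 RBFOXi libraries received a 2′-O-methyl RNA decoy that repeats the motif of the splicing factors RBFOX1 and RBFOX2, and in RBFOXi replicate 1 the labels describe it with the dye Cy5. The 2 SCRM libraries received a scrambled control oligonucleotide. By the study's methods the 2 libraries of a group were independent biological replicates, and what libraries with the same replicate number share is not given in the sources used here. The tables give counts per splicing event and no expression levels, so markers of the cell line were not analysed here.

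Initiation begins when eIF2 brings the initiator tRNA to the small ribosomal subunit with eIF1, eIF1A, eIF3 and eIF5, while eIF4F (the cap-binding eIF4E, the scaffold eIF4G and the helicase eIF4A) recruits the mRNA. The kinases EIF2AK1 to EIF2AK4 restrain this step by phosphorylating eIF2, whose exchange factor is eIF2B, and eEF1 and eEF2 then drive elongation. RBFOX proteins bind UGCAUG, and a site in the intron downstream of an exon is known to favour inclusion of that exon.

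The exon of EIF4A2 was chosen for its difference in inclusion, the largest among the distinct exons of this set. Whether a downstream motif bears on that difference was not tested. The sequences shown are those of EIF4A2 and of EIF4H, an exon that is also skipped often but had nearly the same PSI in both groups. They were read from GRCh37 (hg19), 5′ to 3′ on the gene's strand, which is plus for both. In the exon lines the exon is in capitals and 20 nt of intron on each side are in lower case, at chr3:186502731-186502910 and chr7:73604557-73604656. In the intron line, the first 150 nt of the intron after the EIF4A2 exon (chr3:186502891-186503040), capitals mark the motif UGCAUG, written as TGCATG in DNA, which begins at nt 123 of that intron.
EIF4A2 exon 4 of 11: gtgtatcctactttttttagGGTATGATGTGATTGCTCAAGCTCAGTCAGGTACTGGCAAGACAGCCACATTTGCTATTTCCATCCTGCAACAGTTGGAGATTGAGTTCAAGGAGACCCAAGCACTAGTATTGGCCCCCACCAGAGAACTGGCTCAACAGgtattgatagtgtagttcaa
EIF4A2 intron after exon 4: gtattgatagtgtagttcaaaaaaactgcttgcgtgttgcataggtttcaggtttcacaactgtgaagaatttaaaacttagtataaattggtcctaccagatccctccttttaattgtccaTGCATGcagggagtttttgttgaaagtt
EIF4H exon 5 of 7: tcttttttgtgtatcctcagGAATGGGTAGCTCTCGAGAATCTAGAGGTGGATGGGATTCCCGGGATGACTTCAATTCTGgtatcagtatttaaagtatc

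Inclusion is given as PSI, the proportion of transcripts that hold the alternative region, from 0 to 1, computed from the inclusion and skipping counts divided by the effective length of each form. Delta PSI is the mean of RBFOXi minus that of SCRM. Tests were limited to events with a minimum of 5 counts per library, a mean of 20 or more, and 4 or more counts of each form over the 4 libraries. Of the 528 skipped exon events 280 passed, at 206 distinct exons in 51 genes. Of the other 248 events 19 had too few counts and 229 had fewer than 4 skipping counts. Exons without skipping reads were therefore left out by construction, and shares below describe exons with some skipping. EEF1DP3, EEF1E1, EIF2AK3 (the kinase PERK), EIF3C and EIF3F had no tested event of any type. Where an exon had several events, the one with the highest mean count stands for it.

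SCRM replicate 1 stood apart in its counts along genes. Summed over skipped exon events, counts per library were 114415530 to 136097319. In the 19 factor genes with at least 5 tested exons, the count of each library, scaled by that sum, was divided by the mean of the other 3. In SCRM replicate 1 this ratio was lower at the first tested exon than at the last in 19 of 19 genes, with medians of 0.353 and 1.08. In RBFOXi replicate 1, RBFOXi replicate 2 and SCRM replicate 2 that was so in 3, 2 and 1 of the 19 genes. The mean that divides the counts of these libraries includes SCRM replicate 1, so their ratios depend on its gradient and do not show that they are even. EIF4G1, the eIF4F scaffold, shows the size of it. At its first tested exon SCRM replicate 1 had 533 counts and SCRM replicate 2 had 3525, while at the last they had 7777 and 8595. The part of this gradient in the results below was not tested.

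**Figure D1:**
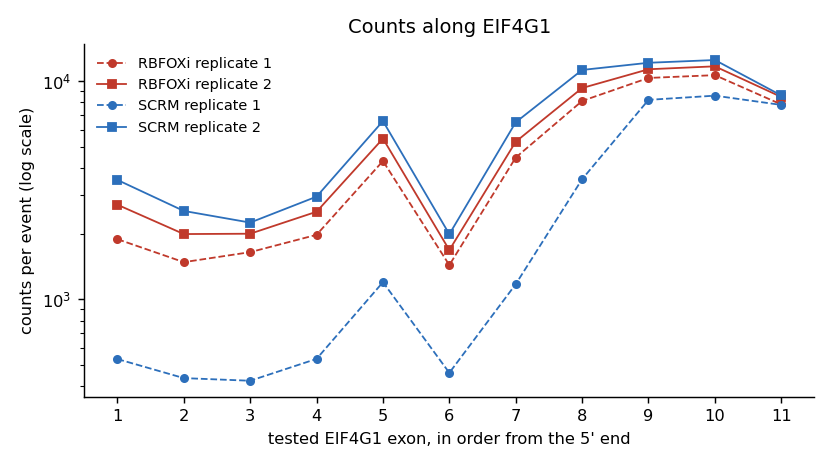
Counts per event on a log axis at the 11 tested EIF4G1 exons in order from the 5′ end, one line per library. SCRM replicate 1 is the lowest library at every exon, far below the others at the first exons and close to them at exon 11, where the counts are between 7777 and 8595.

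Most exons of translation factors were included nearly fully in both groups. Mean PSI over the 4 libraries was above 0.9 at 186 of the 206 exons (90.3%), from 0.1 to 0.9 at 12 (5.83%) and below 0.1 at 8 (3.88%). Over all 30617 tested exons of the series these shares were 75.1%, 17.8% and 7.16%, and median PSI was 0.995 for the factors and 0.979 for all. The exons of the factors also had more reads, with a median of 2186 counts per library against 522.2. By the annotation, 181 of the 205 exons whose values are shown were coding, 11 partly coding and 7 lay in the 5′ UTR. The length was a multiple of 3 at 41.7% of the factor exons and at 42.6% of all tested exons.

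No skipped exon of a translation factor was called. In the limma fit of the inclusion odds, 0 of 280 events reached an adjusted p under 0.05 with a delta PSI of at least 0.1 in size, where 27 of 39615 did over the series (0.0682%). At an unadjusted p under 0.05 there were 9 factor events (3.21%), where the share over all tested events was 3.61%. Inclusion was higher with RBFOXi at 3 of the 9 and lower at 6, beside 1.87% and 1.74% of all tested events. The quasi-binomial F test called 0 factor events (0.121% of all) and had 17 at an unadjusted p under 0.05 (6.07%, against 7.06% of all). Fisher's exact test on the sums of each group, which takes no account of the spread between replicates, called 1 (0.357%, against 0.8%) and had 49 at such a p (17.5%, against 13.6%). An exact permutation test of 2 against 2 libraries cannot go below p = 0.333, so single exons are given with limma's limits. The RBFOXi and SCRM libraries did not overlap at 84 events (30.0%), against 30.8% over all events. Median delta PSI was -2.55e-05 over the factor events and -5.65e-05 over all events. Mean PSI was above 0.9 at more of the factor exons than of all tested exons (90.3%, against 75.1%). Sizes of delta PSI were not compared between exons of similar PSI. Only 1 of the 206 distinct exons (0.485%) had a delta PSI of at least 0.1 in size, where 4.43% of all tested exons did. Counted over events it was 4 of 280 (1.43%, against 4.83% of all), the other 3 being less covered events of 2 EIF4G1 exons of 87 and 94 nt with other flanking exons, at -0.112, -0.139 and 0.125 and with 95% limits of the log2 odds difference that all included 0.

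**Figure D2:**
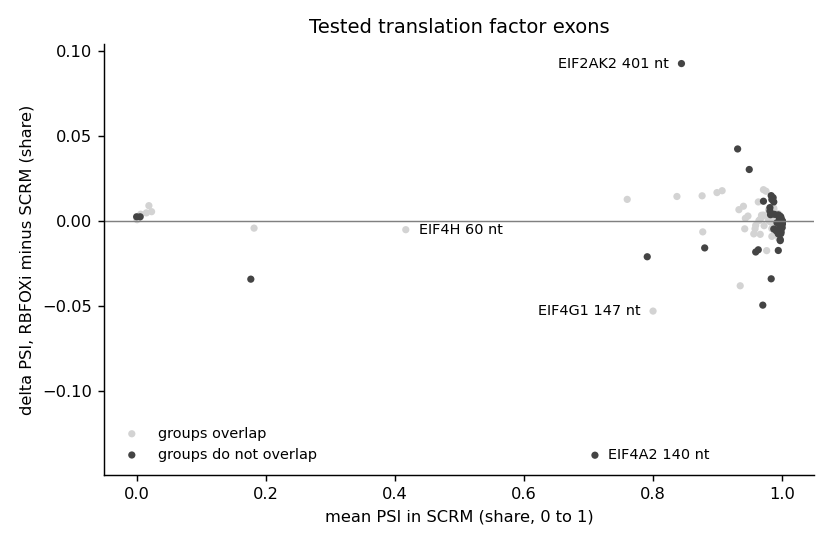
Delta PSI (RBFOXi minus SCRM) against mean PSI in SCRM, both as shares, for the 205 tested translation factor exons with values shown, one point per exon, dark where the libraries of the groups do not overlap. Most points lie near a PSI of 1 and a difference of 0, and EIF4A2 lies lowest at -0.138 and EIF2AK2 highest at 0.0927.

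The eIF4F group (9 genes, 59 exons) held 7 of the 12 alternative exons and, with 1 event per exon, the only one whose difference reached 0.1. This was exon 4 of EIF4A2, a DEAD-box helicase that unwinds mRNA leaders and a close relative of EIF4A1. The exon lies at chr3:186502751-186502890 on the plus strand, is coding and has 140 nt, which is no multiple of 3. Of the GENCODE transcripts that join its neighbours and skip it, 0 are protein-coding, 3 are annotated as targets of nonsense-mediated decay and 3 are of other kinds. PSI was 0.530 and 0.614 in the RBFOXi libraries and 0.666 and 0.753 in the SCRM libraries. Both RBFOXi libraries were below both SCRM libraries, and within each group replicate 1 was the lower. Behind these values stood 663 and 1011 skipping counts beside 1845 and 3958 inclusion counts with RBFOXi, and 195 and 615 skipping beside 958 and 4634 inclusion counts with SCRM. The RBFOXi mean was 0.572 ± 0.0589 (SD, n = 2). For SCRM it was 0.710 ± 0.0619 (SD, n = 2). The log2 odds of inclusion differed by -0.88 (95% limits -1.48 to -0.28, limma adjusted p = 1.0). With PSI as the plain share of inclusion counts, not corrected for length, the difference was -0.0908. Delta PSI kept its sign without each library in turn, from -0.0939 to -0.182, but the limits included 0 without RBFOXi replicate 1 (-1.32 to 0.05) and without SCRM replicate 2 (-1.36 to 0.22). The other 5 tested EIF4A2 exons had PSI of at least 0.977 in every library, and their delta PSI reached at most 0.00786. Reads were aligned uniquely, so reads that fit EIF4A1 equally well were not counted.

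As a scale, the 87 nt exon of ABI1, an actin regulator whose exon was called in these libraries, had PSI of 0.352 and 0.445 with RBFOXi and 0.766 and 0.779 with SCRM. Its log2 odds differed by -2.36 (95% limits -3.10 to -1.62, limma adjusted p = 0.0189). The EIF4A2 difference in PSI was thus -0.138 beside -0.374.

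The other alternative exons of this group differed by less. EIF4H, which stimulates the eIF4A helicase, was the most evenly spliced of them. Its 60 nt exon 5 (chr7:73604577-73604636) had PSI of 0.434 and 0.389 with RBFOXi and 0.433 and 0.400 with SCRM, with 3787 to 7477 counts per library. Both SCRM values lay between the RBFOXi values, and the log2 odds differed by -0.03 (95% limits -0.47 to 0.40). In EIF4G2, an eIF4G relative without the binding site for eIF4E, the 114 nt exon 14 of 22 (chr11:10823208-10823321, minus strand) had PSI of 0.762 and 0.777 with RBFOXi and 0.777 and 0.804 with SCRM. The RBFOXi values lay at or below the SCRM values, with a log2 odds difference of -0.18 (95% limits -0.63 to 0.27). EIF4E2, a cap-binding protein that represses translation, had PSI of 0.866 and 0.875 against 0.868 and 0.886 at its 135 nt exon, which is a difference within the spread of the replicates.

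The scaffolds EIF4G1 and EIF4G3 had several alternative exons. The 147 nt exon of EIF4G1 (chr3:184033860-184034006), partly coding, had PSI of 0.695 and 0.800 with RBFOXi and 0.786 and 0.815 with SCRM, and the groups overlapped (95% limits of the log2 odds difference -1.14 to 0.32). In EIF4G3 the 111 nt exon was mostly skipped, at 0.143 and 0.142 against 0.207 and 0.147. Its 147 nt exon, the exon before the last, was mostly included, at 0.909 and 0.873 against 0.882 and 0.870. The 95% limits of the log2 odds difference were -1.09 to 0.38 for the first and -0.62 to 1.07 for the second. The 33 nt exon 7 of EIF4G3 was nearly absent, with 7, 3, 0 and 14 inclusion counts in RBFOXi replicates 1 and 2 and SCRM replicates 1 and 2. Those are PSI of 0.0408, 0.0167, 0.0 and 0.0466, which at this depth show no direction.

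**Figure D3:**
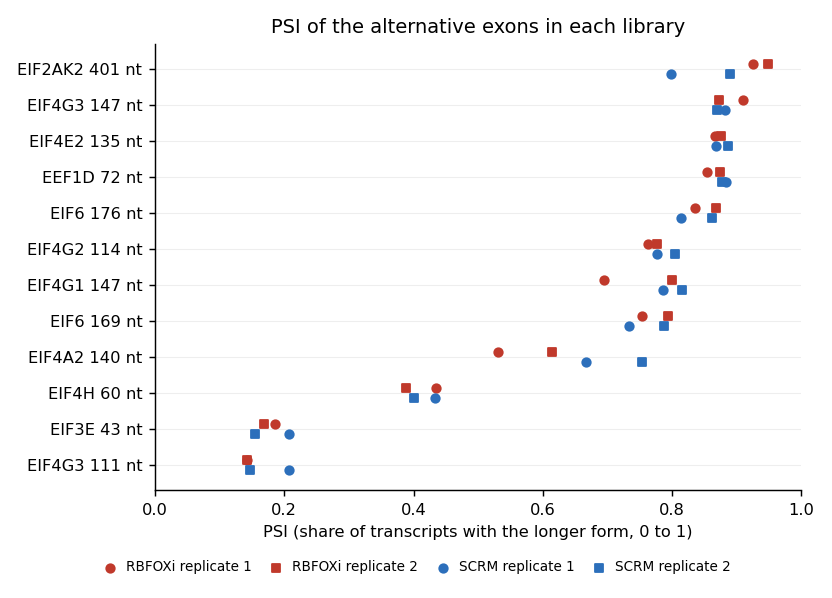
PSI (0 to 1) in each library at the 12 tested translation factor exons with mean PSI from 0.1 to 0.9, ordered by mean PSI, with RBFOXi in red, SCRM in blue, circles for replicate 1 and squares for replicate 2. At EIF4A2 (140 nt) the red points, 0.530 and 0.614, lie below the blue ones, 0.666 and 0.753, while at EIF4H (60 nt) red and blue coincide between 0.389 and 0.434.

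**Figure D4:**
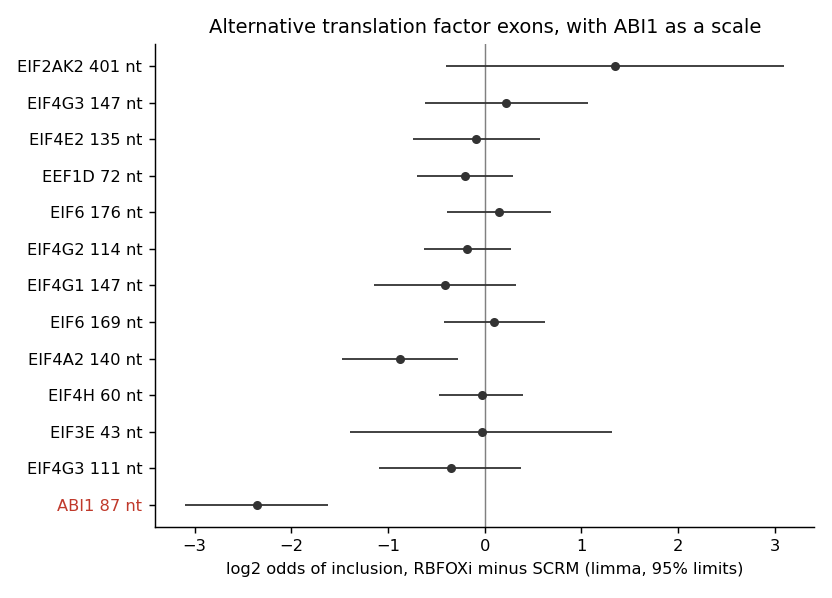
Difference in log2 odds of inclusion (RBFOXi minus SCRM) from limma with 95% limits for the same 12 exons, and for the ABI1 exon in red letters. The limits exclude 0 for EIF4A2 (-1.48 to -0.28) and, of the scale, for ABI1 (-3.10 to -1.62).

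The precision depended on how often an exon was skipped. Of the 12 alternative exons, 6 had 95% limits within 1 log2 unit of 0 and 11 within 2 units, and the limits excluded 0 at 1 of them, EIF4A2. Of the 185 exons with PSI above 0.9, 42 had limits within 2 units, 8 excluded 0, and the median width was 4.88 units. At the rest of these 185 exons the limits reached beyond 2 log2 units.

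Among the eIF2 alpha kinases (3 genes, 22 exons) the largest positive difference was in the 5′ UTR of EIF2AK2, the kinase PKR that double-stranded RNA activates. The 401 nt form of its second exon (chr2:37376000-37376400, minus strand) had PSI of 0.925 and 0.948 with RBFOXi and 0.798 and 0.889 with SCRM. The RBFOXi libraries were higher, but this rests on 4, 4, 4 and 13 skipping counts, and the log2 odds difference of 1.35 had limits from -0.40 to 3.10. The 167 nt form, which shares one end, had 0.968 and 0.979 against 0.907 and 0.955. EIF2AK1, the kinase HRI of haem-poor cells, and EIF2AK4, the kinase GCN2 of amino acid starvation, had no exon with mean PSI from 0.1 to 0.9.

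The eIF3 group (12 genes with the antisense transcript, 43 exons), the scaffold that binds the small subunit, held 1 alternative exon. It is the 43 nt exon of EIF3E, with 61 to 110 counts per library and PSI of 0.186 and 0.169 with RBFOXi and 0.208 and 0.155 with SCRM, which overlap. The range of delta PSI over the group was -0.0183 to 0.0167. Its subunit EIF3J overlaps EIF3J-AS1 on the other strand, and reads of the pair cannot be told apart where the counting does not use strand, which is not given in the sources used here.

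Start site selection and the ternary complex (11 genes, 31 exons) and eIF2B (4 genes, 13 exons) held 0 exons with mean PSI from 0.1 to 0.9. Their delta PSI ran from -0.00803 to 0.0178 and from -0.017 to 0.0149. The 4E-binding proteins EIF4EBP1 and EIF4ENIF1 (4 exons) ran from -0.0041 to 0.00758.

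EIF6, which keeps the large ribosomal subunit from joining too early, held the alternative exon with the most reads. Its 176 nt exon 4 (chr20:33868457-33868632, minus strand) had PSI of 0.835 and 0.868 with RBFOXi and 0.813 and 0.861 with SCRM, with 9864 to 16361 counts. The form of 169 nt, which overlaps it, had 0.754 and 0.793 against 0.733 and 0.788. In both, the replicates of a group differed more than the groups did. EIF5A, the factor with hypusine that helps the ribosome over difficult stretches, had mean PSI of 1.0 at its 3 tested exons.

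The elongation factors (6 genes, 22 exons) had the highest median PSI of the groups, 0.999. EEF1A1, which delivers tRNA, and EEF2, the translocase, each had PSI of 1.0 at both tested exons. The exception was EEF1D, a subunit of the eEF1 exchange factor, which had 1 exon in the middle range and 4 of the 8 exons with PSI below 0.1. Its 72 nt exon had 0.854 and 0.874 with RBFOXi and 0.883 and 0.877 with SCRM, a log2 odds difference of -0.20 (95% limits -0.70 to 0.29). Its long coding exon of 1091 nt was rarely included in U87MG cells, at 0.0147 and 0.0252 against 0.00935 and 0.0211. In EEF2K, the kinase of eEF2, delta PSI ran up to 0.0184 at exons with PSI of at least 0.980.

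The 9 distinct exons at an unadjusted p under 0.05 (4.37%, against 3.74% of all tested exons) were EIF4A2 and 8 exons included above 0.9, and they are named here because of their values. Inclusion was lower with RBFOXi at EIF4A2, EIF4G1, EIF3J, EIF2S2, EIF4E and EIF3H and higher at EIF2AK1, EIF2B3 and EIF2AK4. At the 8 exons above 0.9 the filter on skipping counts can be met by a single group. Their directions are therefore not read as results. The lowest p, 0.00362, belonged to the 57 nt exon in the 5′ UTR of EIF4G1, with PSI of 0.931 and 0.966 against 0.983 and 0.983. That exon has 5 tested events with different flanking exons, whose p ran up to 0.998 and whose delta PSI ran from -0.0341 to 0.00664. It is also the exon at which SCRM replicate 1 had 533 counts. At EIF3J, a loosely bound subunit of eIF3, PSI was 0.977 and 0.976 against 0.997 and 0.990, from 10, 17, 1 and 6 skipping counts.

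The motif UGCAUG, searched on the strand of the gene, stood within 300 nt after the exon at 9 of the 206 exons (4.37%) and at 8.36% of all tested exons. Beside EIF4A2 these were exons of EIF3A, EIF3H, EIF3I, EIF3M, EIF2AK1, EIF2AK4, EIF2B1 and EIF2D. Each held the motif at 1 position. In the last 300 nt upstream it stood at 7.28% of the factor exons and 8.16% of all. The shorter GCAUG, which every UGCAUG also holds, stood in the first 300 nt downstream at 22.8% and 24.1%. The motif regions of EIF3A, EIF3M, EIF2AK4 and EIF2B1 are shown with their flanks because they carry the same hexamer as EIF4A2 beside exons with mean PSI above 0.9; capitals mark the motif. In the order printed they lie at chr10:120803433-120803462, chr11:32615685-32615714, chr15:40278339-40278368, chr12:124114437-124114466 of GRCh37, on the minus, plus, plus, minus strand.
EIF3A: tgaagaattgtgTGCATGtctgattgcgtg
EIF3M: atatgaagtagcTGCATGgcgtttacctgg
EIF2AK4: acctgttaggacTGCATGaactcgggcaag
EIF2B1: cttagtaagtgcTGCATGaatgtaggtctt
The exon of EIF4A2 was the only one of the 9 with mean PSI from 0.1 to 0.9. EIF3M, a subunit of eIF3, came next with PSI of 0.893 and 0.937 with RBFOXi and 0.943 and 0.854 with SCRM at its 84 nt exon, on 2 to 4 skipping counts per library. At the other 7 mean PSI was at least 0.968 and delta PSI ran from -0.0175 to 0.00283. Of these 7, the 112 nt exon of EIF2AK1 had an unadjusted limma p of 0.0226, at a delta PSI of 0.00231. PSI was 1.0 and 1.0 with RBFOXi and 0.998 and 0.998 with SCRM, so hardly any skipping was seen with RBFOXi. Such an exon can meet the filter on skipping counts through SCRM alone, so its direction is not read as a result. EIF3A, the largest eIF3 subunit, has the motif nearest to its exon, at nt 116, and had PSI of 1.0, 0.999, 1.0 and 1.0 in the RBFOXi and SCRM libraries. A match of letters is a description and no sign of binding.

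At splice sites and retained introns there were 0 calls. By limma, 0 of 27 tested 3′ splice site events were called and 0 had an unadjusted p under 0.05, where 0.0% and 3.32% of 3009 did over the series. Of 10 tested 5′ splice site events 0 were called and 0 had such a p (0.0% and 3.59% of 2281 in all), and of 5 retained introns 0 and 0 (0.0% and 1.74% of 1034). The quasi-binomial F test called 0 of the 3 types as well, where it called 0.0665%, 0.0877% and 0.0% of all 3′ splice site, 5′ splice site and retained intron events. Fisher's exact test also called 0, beside 0.665%, 1.23% and 2.9% of all. The groups did not overlap at 9 of the 27 3′ splice site events, where 30.8% of all such events did not.

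The 3′ splice sites of translation factors were often tandem acceptors, at which the spliceosome chooses between 2 AG 3 nt apart and so adds or leaves out 1 codon or its equivalent. Of 24 distinct tested sites 7 were of this kind (29.2%), against 22.6% of all 2850. Those outside EEF1D are shown because the letters make the choice visible. Capitals mark both acceptors, with the intron before them and the shared exon after them. They lie at chr1:21276587-21276627, chr3:184041170-184041210, chr3:186502195-186502235, chr22:31843537-31843577, chr2:27592062-27592102, chr7:6082607-6082647 of GRCh37 in the order printed, on the minus, plus, plus, minus, minus, minus strand.
EIF4G3: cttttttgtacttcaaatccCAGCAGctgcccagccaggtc
EIF4G1: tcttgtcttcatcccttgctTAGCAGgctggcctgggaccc
EIF4A2: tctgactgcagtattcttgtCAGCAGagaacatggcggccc
EIF4ENIF1: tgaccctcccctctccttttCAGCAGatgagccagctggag
EIF2B4: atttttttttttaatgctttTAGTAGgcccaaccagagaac
EIF2AK1: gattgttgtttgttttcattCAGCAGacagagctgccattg
Here PSI is the share of the form that uses the first AG and keeps the extra 3 nt. EIF4G3 had the largest difference of these sites, with PSI of 0.442 and 0.485 with RBFOXi and 0.553 and 0.512 with SCRM. The RBFOXi libraries were lower, and the log2 odds differed by -0.40 (95% limits -0.86 to 0.06). The value of 0.553 came from SCRM replicate 1, with 85 counts, while the other libraries had 659 to 1057. Without SCRM replicate 1 delta PSI of EIF4G3 was -0.0485, where it was -0.069 with all libraries. Its relative EIF4G1 used the first AG less, at 0.340 and 0.326 against 0.306 and 0.322, slightly higher with RBFOXi at a log2 odds difference of 0.13 (95% limits -0.20 to 0.45). EIF2B4, a subunit of the eIF2 exchange factor, had 0.644 and 0.655 against 0.632 and 0.643. EIF2AK1 had 0.845 and 0.828 against 0.905 and 0.840, and EIF4A2 0.320 and 0.331 against 0.336 and 0.247. EIF4ENIF1, which carries eIF4E into the nucleus and to P-bodies, had 0.267 and 0.364 against 0.321 and 0.257, so the replicates differed more than the groups. EEF1D, with 10895 to 16634 counts the deepest of them, had 0.856 and 0.857 against 0.870 and 0.863, a log2 odds difference of -0.12 (95% limits -0.40 to 0.15).

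The sites further apart were longer extensions of an exon. In EIF3B, a core subunit of eIF3, the sites 80 nt apart (chr7:2419839-2419918) gave PSI of 0.786 and 0.832 with RBFOXi and 0.847 and 0.847 with SCRM, a log2 odds difference of -0.38 (95% limits -0.85 to 0.10). The pair 75 nt apart, which shares the first of these sites, gave 0.486 and 0.472 against 0.526 and 0.497. In EIF1AD, a nuclear protein with an eIF1A-like domain, the 75 nt pair gave 0.697 and 0.790 against 0.795 and 0.779, with RBFOXi replicate 1 alone below the rest. Of the 5′ splice sites, that of EIF6 (205 nt) had 0.566 and 0.616 against 0.527 and 0.615 and that of EIF1AD (130 nt) 0.215 and 0.280 against 0.275 and 0.281. EIF4B, the other activator of eIF4A, used its extra 15 nt at 0.1 in both RBFOXi libraries and at 0.0883 and 0.0954 with SCRM.

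Retained introns were measured in 3 genes. EEF1B2, a subunit of the eEF1 exchange factor, has a 274 nt intron (chr2:207024409-207024682) with PSI of 0.696 and 0.734 with RBFOXi and 0.672 and 0.715 with SCRM, and with 11316 to 12985 counts per library. The 228 nt form of it had 0.622 and 0.642 against 0.594 and 0.594. The RBFOXi libraries were higher there, yet the log2 odds difference of 0.23 had limits from -0.42 to 0.88. The 204 nt intron of EIF6 had 0.806 and 0.803 against 0.840 and 0.788, and its 119 nt intron was nearly always removed, at 0.0387 and 0.0383 against 0.0426 and 0.0369.

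**Figure D5:**
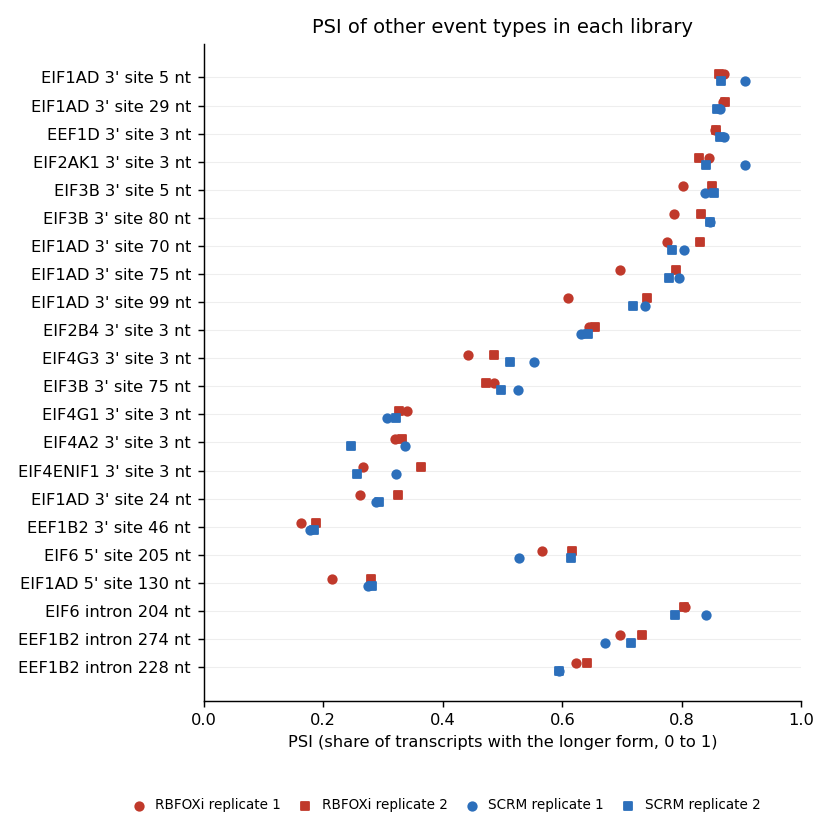
PSI (0 to 1) in each library at the 22 splice site and intron events of translation factors with mean PSI from 0.1 to 0.9, with RBFOXi in red, SCRM in blue, circles for replicate 1 and squares for replicate 2. The spread differs between rows, and at the EIF1AD 3′ site of 75 nt the red points are 0.697 and 0.790 and the blue ones 0.795 and 0.779. At the EIF4G3 3′ site of 3 nt the red points, 0.442 and 0.485, lie below the blue ones, 0.553 and 0.512.

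Events of mutually exclusive exons compare reads on 2 neighbouring exons, and in this set most of them measured exons that were both present. At 140 of the 157 distinct tested pairs (89.2%) each exon had a PSI above 0.9 as a skipped exon. The 5′ exon had its lowest share in SCRM replicate 1 at 121 of the 157 pairs (77.1%), and at 61.8% of the 20683 tested pairs of the series. limma called 0 of 191 factor events (0.0% of 26176 in all), and 9 had an unadjusted p under 0.05 (1.51% in all). The share of the 5′ exon was higher with RBFOXi at 7 of the 9 (0.871% in all) and lower at 2 (0.638% in all). All of the 9 events but that of EIF4B were in EIF4G1, several on the same pair, and with 1 event per pair 2 of 157 had such a p (1.27%, against 1.41% of all pairs). The quasi-binomial F test called 0 events (0.0153% in all) and Fisher's exact test called 2, both in EIF4G1 (1.05%, against 0.76% in all). Without SCRM replicate 2, which leaves SCRM replicate 1 as the only control, 10 factor events and 1400 of all events were called. The lowest p of the distinct pairs was that of the EIF4G1 exons at chr3:184033551-184033644 and chr3:184033860-184034006, with shares of the first of 0.137 and 0.109 with RBFOXi and 0.0796 and 0.0805 with SCRM (limma adjusted p = 1.0). In EIF2D, an alternative carrier of initiator tRNA, the shares were 0.572 and 0.611 against 0.412 and 0.584, with SCRM replicate 1 alone low. EEF1A1, EEF2 and EIF5A had the most reads, and all showed SCRM replicate 1 lowest, with 0.743, 0.642 and 0.546 beside 0.805, 0.683 and 0.622 in SCRM replicate 2.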

How the data were processed

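The authors aligned RNA-seq reads of 4 libraries (2 RBFOXi, 2 SCRM) uniquely to hg19, with STAR 2.4.2a per the labels, and counted them per splicing event with rMATS. The deposited values used here are whole-number counts of inclusion and skipping reads, per library and not normalized, with each form's effective length. The authors' p-value, FDR and inclusion level difference were not used. PSI was computed from counts divided by effective lengths. The log2 odds with a pseudocount of 0.5 were fitted over all tested events of a type with limma 3.58.1 (R 4.3.3, prior variance following each event's information, with the condition as the only term). Benjamini-Hochberg adjustment covered all tested events of the type. The fit was tested on simulated counts for the 39615 skipped exon events. It recovered 39 of 100 events changed by 2 log2 units and 63 of 100 changed by 4, and called 0 unchanged ones. How the changed events were chosen is not reported here. The simulated spread was not compared with that of the real libraries or with the gradient along genes described above. The 0 therefore holds for the simulated counts and does not show how often unchanged events would be called in these libraries. Recovery was not computed for the factor exons alone. Mean PSI was above 0.9 at 90.3% of those exons, so the recovery numbers do not describe how often a change in them would be called. Sequences and motifs came from GRCh37 and annotation from GENCODE models lifted to it; 39609 of 39615 downstream introns began with GT or GC there. Some of the motif regions are not reported here. Python 3.11.15, pandas 2.3.3, numpy 2.4.6, scipy 1.17.1, pysam 0.24.0 and matplotlib 3.10.9 were used.

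The members and gene lists were chosen with earlier results of these data known. Named were called members, the 10 exons with the smallest p among those with a delta PSI of at least 0.05 and groups that did not overlap, the 15 with the highest counts and mean PSI from 0.1 to 0.9, exons with UGCAUG within 300 nt downstream and mean PSI from 0.05 to 0.95, of each other type the 5 smallest p and the 3 highest counts, and the ABI1 exon. Reads may enter several events and are not independent molecules, so only the spread between libraries was used for tests. Alternatives covered the test, pseudocount, count filter, replicate block, delta PSI minimum, PSI definition, each library left out, 1 event per exon and the motif window.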

Additional observations from a re-analysis of the deposited data

How the results depend on the processing

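Called skipped exon events of translation factors went from 0 to 1 with Fisher's exact test on summed counts and to 1 with the replicate block, in both cases the EIF4A2 exon, while calls over all 39615 events went from 27 to 317 and 119 (adjusted p = 2.89e-48 by Fisher's exact test and 0.00318 by limma with the block). The replicate numbers were not taken as pairs, since the sources used here do not say what they share; the deviations of same-numbered libraries correlated by 0.0836 to 0.118 over the event types, 0.0944 for skipped exons. With the replicate block the factor events at an unadjusted p under 0.05 went from 9 to 17. By the quasi-binomial F test they were 17 (6.07%, against 7.06% of all tested events), and by Fisher's exact test 49 (17.5%, against 13.6%). For the block and for libraries left out, no share of all tested events is given here. Whether those counts follow the series was not tested. Without each library in turn the factor events at such a p were counted as well. The lowest, 4, was without SCRM replicate 1, and the highest, 16, without SCRM replicate 2. Called skipped exon, 3′ splice site, 5′ splice site and retained intron events stayed at 0 to 0 without each library. Called events of mutually exclusive exons went from 0 to 2 with Fisher's exact test (199 of 26176 in all) and to between 0 and 10 without each library, the 10 being without SCRM replicate 2. In that setting calls rose over all events of this type as well, as given above, so the rise is not particular to the factors. Exons with UGCAUG went from 9 to 4 in the first 200 nt, 18 in the first 500 nt and 87 in the whole intron, and to 47 with GCAUG. Median delta PSI lay between -0.000392 and 5.6e-05. The PSI of a single factor event had a median replicate SD of 0.00282, which does not measure the spread of a median over events. Of 400 values of 40 named events under the alternatives, 24 changed sign without a call, 3 became calls (EIF4A2 as above and the EIF2D pair without SCRM replicate 2) and 3 lost one. Those 3 were ABI1 with a pseudocount of 0.1 and without either SCRM library. With the plain share of counts delta PSI of EIF4A2 was -0.0908. Counts of skipping reads limit the exons with PSI near 1.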

Other observations

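Other genes of translation also had 0 calls. Of 41 genes listed outside the symbol rule (release factors, poly(A)-binding proteins, mitochondrial translation factors, and regulators such as MTOR and the eIF4E kinases MKNK1 and MKNK2), 34 had 186 tested skipped exon events. limma called 0 of them (0.0682% in all), the quasi-binomial F test 0 (0.121% in all) and Fisher's exact test 0 (0.8% in all). The groups did not overlap at 50 (26.9%, against 30.8%), and median delta PSI was -0.000372. At an unadjusted limma p under 0.05 there were 3 events (1.61%, against 3.61% over all events). Inclusion was higher at all 3, but a single group can meet the filter on skipping counts, so this is not read as a direction. Of the 3, 1 exon had a delta PSI of at least 0.05 in size, the 138 nt exon of LARP1B, a relative of the RNA-binding protein LARP1, chosen here after its values were seen. Its PSI was 1.0 and 1.0 with RBFOXi and 0.731 and 0.731 with SCRM, from 0, 0, 3 and 2 skipping counts among 23, 31, 24 and 16 counts, so it rests on 5 reads. All of these were in SCRM, so the exon met the filter through that group alone.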
